A study of Mus musculus with 12 samples.

Results

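C2C12 cells are a line of mouse myoblasts that withdraw from the cell cycle, fuse and build contractile fibres when serum is lowered. The libraries described here come from C2C12 cells that received either a control siRNA or one directed at Zfp143 and then spent 5 days under myogenic induction. They were chosen by their labels alone and make up 6 of the 12 libraries of the series, 3 per siRNA. All cells were transfected in growth medium with 10% fetal bovine serum, and 24 hours later the induced cells were moved to medium with 1% horse serum, which was renewed daily. The other 6 libraries are control siRNA and Zfp143 siRNA cells harvested uninduced at 24 hours, and they are used below only where the siRNA effect before induction is set beside the effect after it. No genotype or other agent separates the groups, all of which are 1 cell line, and the labels do not say whether replicates were separate cultures, so the p-values measure the spread between these libraries, which may be technical.

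Zfp143, named ZNF143 in humans, is a zinc finger protein that binds promoters, activates genes read by RNA polymerase II and RNA polymerase III, and is found at the anchors of chromatin loops. Myogenic differentiation is a fixed sequence in which Myf5 and Myod1 mark the committed myoblast, Myog and the Mef2 factors switch on the muscle genes, the membrane proteins myomaker and myomerger fuse the cells, and sarcomere genes follow. Cell division and this program exclude each other, so that cell cycle genes normally fall as muscle genes rise.

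Each library held between 18155406 and 18482793 estimated counts in the control siRNA group and between 13520879 and 18271972 in the group labelled Zfp143 siRNA. Library correlations were 0.977 to 0.989 within the 2 induced groups and 0.963 to 0.976 between them. Replicate 1 of the Zfp143 siRNA group stood apart from its other replicates: it had the lowest total, 1.95% of its counts came from mitochondrially encoded genes against 3.44% and 3.47%, and the second principal component, with 21.9% of the variance, placed it at 40.0 and the others at -24.3 and -27.1. The first component, with 48.4%, separated the 2 siRNAs. All 8 muscle markers used as a check of the label (Des, Myod1, Myog, Acta1, Ckm, Myh3, Mylpf and Tnnt3) were measured in every induced library.

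The siRNA target itself was not measurably lower at this time. Zfp143 stood at 19.7, 19.3 and 19.3 CPM (counts relative to the library's effective size) in the control siRNA libraries and at 14.7, 16.8 and 19.7 CPM in the libraries labelled Zfp143 siRNA. Replicates 1 and 2 were below all controls and replicate 3 was level with the highest of them, so the groups overlapped. The log2 fold change was -0.18 (SE 0.18, 95% interval -0.57 to 0.20), with an adjusted p of 0.646 in edgeR's quasi-likelihood test and an exact two-sided permutation p of 0.3, where 0.1 is the smallest value 3 against 3 libraries can give. Before induction Zfp143 had been at 23.2, 27.8 and 39.8 CPM with control siRNA and at 12.2, 11.9 and 10.1 CPM with Zfp143 siRNA, a log2 fold change of -1.41, and this effect differed from the one after induction by 1.22 (SE 0.26, adjusted p = 0.00358). The induced groups are therefore named by their labels throughout, and each direction below is that of the libraries labelled Zfp143 siRNA against the control siRNA libraries.

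**Figure D1:**
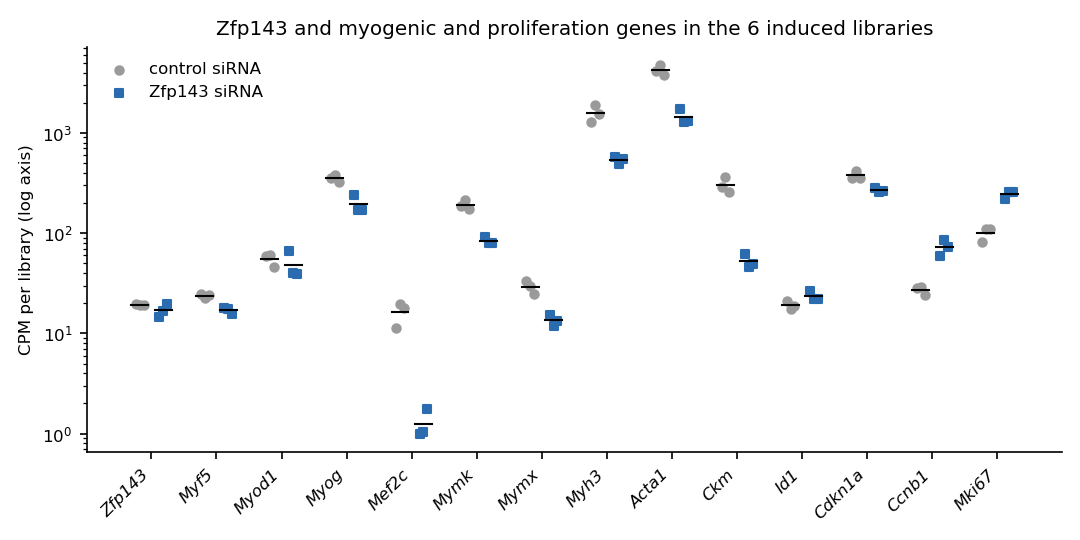
CPM of Zfp143 and of 13 myogenic and proliferation genes in each of the 6 induced libraries, on a log axis; circles are control siRNA, squares are libraries labelled Zfp143 siRNA, and bars are group means. Zfp143 and Myod1 overlap between the groups, Mef2c, Myog, Mymk, Mymx, Myh3, Acta1 and Ckm are lower with Zfp143 siRNA, and Ccnb1 and Mki67 are higher.

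Muscle genes were lower and cell division and cholesterol synthesis genes were higher in the libraries labelled Zfp143 siRNA. Of 15030 genes tested, 560 were higher (3.73%) and 867 lower (5.77%) at an adjusted p below 0.05, 9.49% in all. The decreases were the larger: 460 of the lower genes changed by more than 2-fold and 55 by more than 8-fold, against 227 and 4 of the higher genes. Without replicate 1 of the Zfp143 siRNA group there were 503 higher and 858 lower genes, of which 452 and 720 were shared with the full comparison. Without control siRNA replicate 2 the counts were 337 and 564. With scaling by library size alone, 681 genes were higher and 631 lower, and the median log2 fold change of all genes moved from -0.03 to 0.07.

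**Figure D2:**
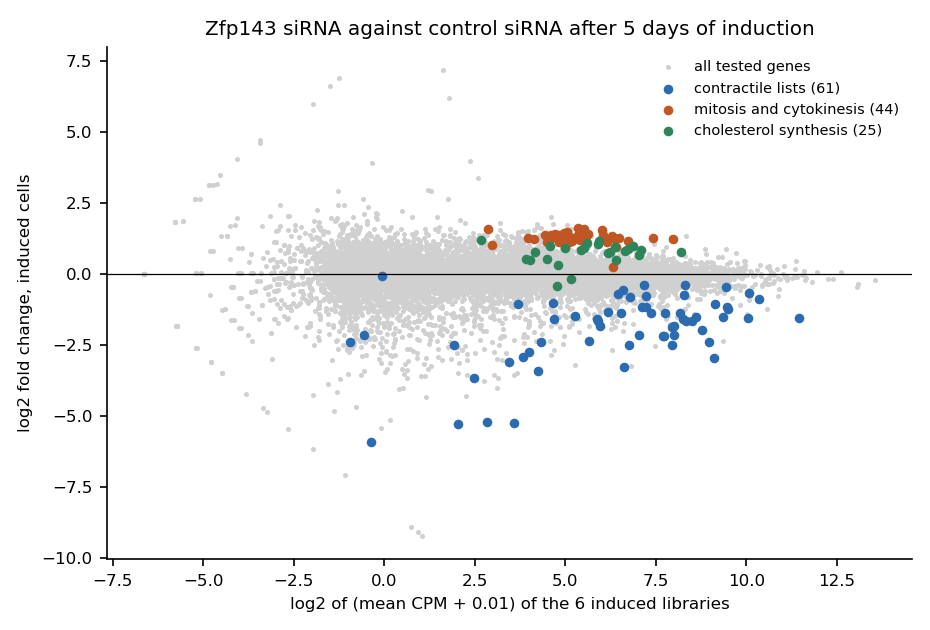
Log2 fold change (vertical axis) against mean abundance on a log2 axis (horizontal axis) for the 15007 tested gene symbols, with the members of the contractile lists, the mitosis and cytokinesis list and the cholesterol synthesis list coloured. The contractile genes lie below 0 at nearly every abundance, and the other coloured lists lie above it with few exceptions.

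The contractile apparatus was lower almost without exception. The thick filament list (myosins, myosin light chains and their binding proteins) had 15 of 15 tested members lower, the thin filament and troponin list 17 of 18, and the list of Z-disc, M-band and filament proteins 24 of 28, against 5.77% of all genes. Without replicate 1 of the Zfp143 siRNA group 15, 16 and 26 were lower. None of the 61 tested members of these lists together was higher, and their median log2 fold change was -1.59, 33.2% of the control level, beside -0.03 for all tested genes. As a share of all counts these genes took 2.35%, 2.93% and 2.42% of the control siRNA libraries and 1.13%, 0.984% and 1.05% of the Zfp143 siRNA libraries. The shares did not overlap, and every induced library was above the uninduced libraries, which lay between 0.195% and 0.277%. In bulk RNA, fewer fibres and less contractile RNA in each fibre cannot be told apart.

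Among thick filament genes the most certain change was that of Myh7, the slow myosin heavy chain, which stood at 152, 216 and 171 CPM with control siRNA and at 21.2, 15.5 and 18.6 CPM with Zfp143 siRNA, 10.3% of control (log2 fold change -3.29, SE 0.19, adjusted p = 3.1e-07). Myl1, a fast essential light chain, went from 785, 989 and 756 CPM to 156, 160 and 159 CPM, and Myl4, its embryonic and atrial relative, from 198, 262 and 187 CPM to 53.3, 45.8 and 46.8 CPM. The groups were far apart for all of these, with no Zfp143 siRNA library near the control range. Mybpc1 and Mybpc2, the slow and fast forms of myosin binding protein C, fell to 2.63% and 2.73% of control, among the largest decreases of any gene. Mybpc1 read 19.4, 27.3 and 23.7 CPM with control siRNA against 0.332, 0.545 and 0.901 CPM, and Mybpc2 read 12.2, 17.4 and 12.4 CPM against 0.133, 0.396 and 0.550 CPM. Myl2, the slow regulatory light chain, had 87 counts in the control libraries together and 1 in the Zfp143 siRNA libraries, a ratio of 78.7 with a 95% counting interval of 13.8 to 3145.

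In the thin filament, Tnnt1, slow troponin T, read 318, 386 and 310 CPM with control siRNA and 74.2, 72.5 and 77.5 CPM with Zfp143 siRNA, which is 22.1% of control (log2 fold change -2.18, SE 0.13, adjusted p = 3.1e-07). Actc1, the cardiac actin of immature fibres, fell to 17.6% of control, Tnnc2, fast troponin C, to 22.5%, and Tnni1, slow troponin I, to 28.4%. Acta1, the skeletal actin and the most abundant transcript among them, read 4136, 4707 and 3777 CPM against 1729, 1277 and 1299 CPM (log2 fold change -1.55, SE 0.23, adjusted p = 0.000492). Slow, fast and cardiac members of the troponin family thus all fell, and none of their groups overlapped. Tmod4, a pointed-end capping protein, was the single tested member without a call, at a log2 fold change of -0.06 (adjusted p = 0.96).

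At the Z-disc, Actn2, the alpha-actinin that cross-links thin filaments, had 7.03, 8.22 and 8.97 CPM with control siRNA and 0.199, 0.099 and 0.30 CPM with Zfp143 siRNA. This was 2.55% of control (log2 fold change -5.29, SE 0.44, adjusted p = 8.5e-06), the largest decrease among genes with at least 5 CPM whose groups did not overlap. Tcap, the titin cap, fell to 7.91% of control and Myoz2, a calcineurin-binding Z-disc protein, to 9.45%. Myoz2 read 33.6, 38.0 and 32.8 CPM against 2.39, 3.66 and 3.70 CPM, with an adjusted p of 2.0e-07. The M-band protein Myom3 fell to 19.6%, and Fhl1 and Ldb3, LIM domain proteins of the filament lattice, to 38.2% and 44.2%. Des, the intermediate filament already made by myoblasts, changed less, from 1299, 1504 and 1163 CPM to 983, 769 and 770 CPM (63.6% of control, adjusted p = 0.00952). The call on Des was lost when control siRNA replicate 2 or Zfp143 siRNA replicate 2 or 3 was left out.

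**Figure D3:**
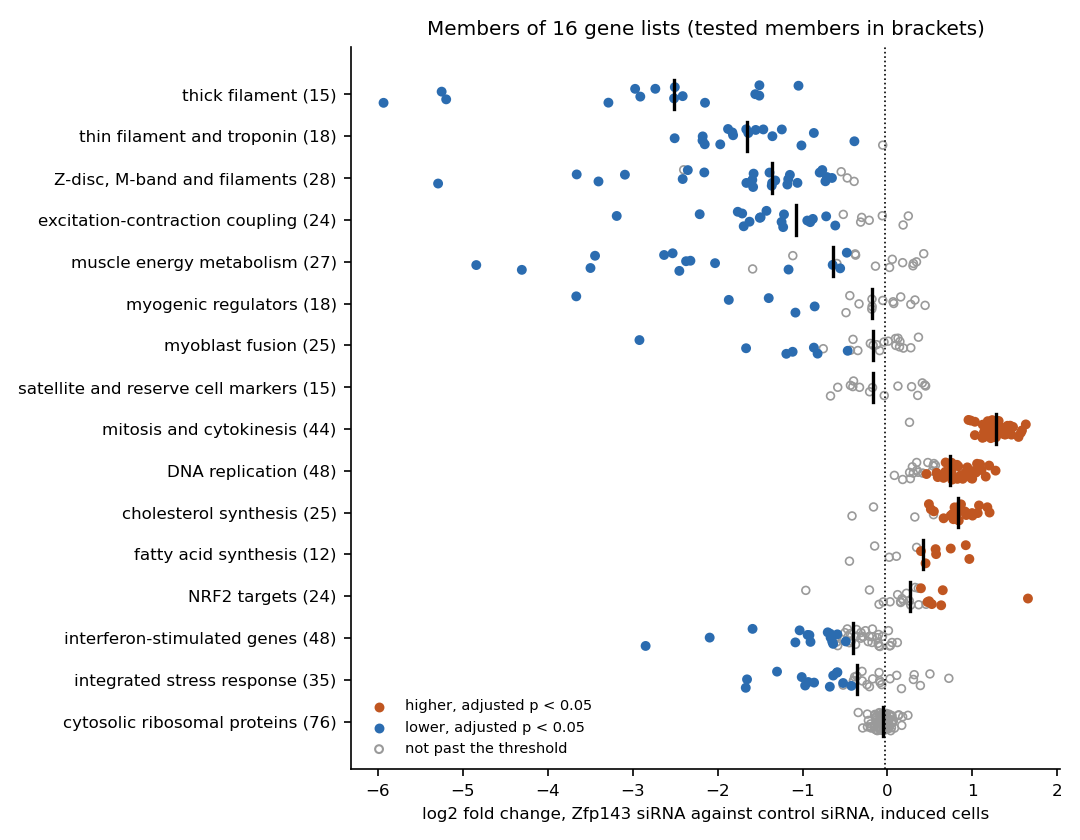
Log2 fold change in induced cells of every tested member of 16 gene lists; filled points passed an adjusted p of 0.05 (orange higher, blue lower), open points did not, black bars are list medians and the dotted line is the median of all tested genes, -0.03. Contractile and calcium handling lists lie to the left, mitosis, replication and cholesterol lists to the right, and ribosomal protein genes sit around the dotted line.

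Within families of contractile genes the isoforms did not fall by equal amounts. On the length-scaled TPM values, the summed myosin heavy chains (Myh1, Myh2, Myh3, Myh4, Myh6, Myh7 and Myh8) stood at 555, 801 and 710 TPM with control siRNA and at 196, 153 and 188 TPM with Zfp143 siRNA. Myh3, the embryonic chain, made up 52.98%, 52.49% and 52.61% of that sum in the control libraries and 74.1%, 75.4% and 73.5% in the Zfp143 siRNA libraries. Myh1, the adult fast 2X chain, fell from 33.0%, 32.4% and 32.8% of the sum to 17.8%, 16.5% and 17.8%, and Myh7 from 6.41%, 6.19% and 6.06% to 2.71%, 2.47% and 2.57%. None of the 7 shares overlapped between the groups. For each, the exact two-sided permutation p was 0.1, the smallest possible here, and over the 20 shares and sums compared the Benjamini-Hochberg value was also 0.1, so none could pass 0.05.

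Other families shifted in the same descriptive sense. Among Acta1, Actc1 and the smooth muscle actin Acta2, the share of Acta2 was 26.1% ± 0.598 (SD, n = 3) with control siRNA and 40.4% ± 1.04 with Zfp143 siRNA. Acta2 itself fell in CPM, to 59.2% of control (adjusted p = 0.0037), by less than Acta1. Tnnt2, the cardiac and embryonic troponin T, held 30.4% ± 0.798 of the troponin T sum with control siRNA and 36.4% ± 1.40 with Zfp143 siRNA, although its level fell to 32.1% of control. Among Myl1, Myl4 and Mylpf, the share of the fast regulatory light chain Mylpf was 48.3% ± 0.454 against 61.9% ± 1.12. Myosin heavy chains, and likewise the actins, share long stretches of near-identical sequence, so part of a read assignment between them is an estimate of the quantification.

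**Figure D4:**
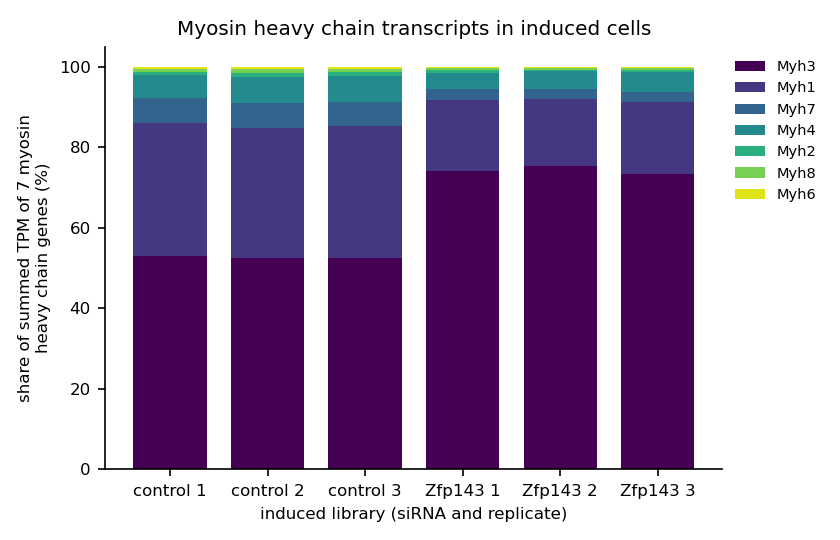
Share of each of 7 myosin heavy chain genes in their summed TPM, as stacked bars from 0 to 100% for the 6 induced libraries. Myh3 takes 52.49% to 52.98% of the sum in the control siRNA libraries and 73.5% to 75.4% in the libraries labelled Zfp143 siRNA, and the segments of Myh1 and Myh7 are narrower there.

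The regulators above these genes changed less evenly. Of 18 tested genes listed as myogenic regulators, 5 were lower and none higher. The 5 include Lmod3 and Smyd1, which act in filament assembly. Mef2c, a transcription factor that acts with Myod1 and Myog on muscle promoters, had 11.4, 19.4 and 17.9 CPM with control siRNA and 0.996, 1.04 and 1.75 CPM with Zfp143 siRNA, 7.88% of control (log2 fold change -3.66, SE 0.34, adjusted p = 1.75e-05). Myog, which commits myoblasts to terminal differentiation, read 352, 378 and 322 CPM against 242, 171 and 168 CPM (55.2% of control, SE 0.14 on the log2 scale, adjusted p = 0.000798). Neither overlapped between the groups, and the gap was wider for Mef2c. Lmod3, an actin nucleator of the thin filament, fell to 27.4%, Smyd1, a chaperone and methyltransferase of thick filament assembly, to 37.9%, and Tead4, a transcription factor that Myod1 induces, to 47.2%.

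The determination factors did not pass the test. Myod1 read 58.9, 60.2 and 45.9 CPM with control siRNA and 66.2, 40.3 and 39.1 CPM with Zfp143 siRNA, with overlapping groups, a log2 fold change of -0.18 and an adjusted p of 0.698. Replicate 1 of the Zfp143 siRNA group held the highest value of all 6. Myf5 read 24.9, 22.6 and 24.1 CPM against 17.9, 17.5 and 15.6 CPM, without overlap, at an adjusted p of 0.0601. Id1, a partner that blocks these factors, was at 123% of control with an adjusted p of 0.271. Among 15 tested inhibitors of differentiation, Bhlhe40 alone was called (6.67%, beside 9.49% of all genes), and it was lower, at 60.9% of control. None of 15 tested markers of satellite and reserve cells passed in edgeR. An unadjusted p under 0.05 was found for 6 of them, 3 higher and 3 lower, beside 3074 of all 15030 tested genes. When Zfp143 siRNA replicate 1 was left out, 3 were called lower.

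The fusion machinery fell in part, 7 of 25 tested genes being lower and none higher. Mymk, or myomaker, which drives the mixing of the outer membranes, read 185, 214 and 172 CPM with control siRNA against 92.1, 79.2 and 79.3 CPM, 43.8% of control (log2 fold change -1.19, SE 0.15, adjusted p = 8.7e-05). Mymx, or myomerger, which opens the fusion pore, read 33.4, 30.0 and 24.6 CPM against 15.4, 11.8 and 13.4 CPM (46.1%, adjusted p = 0.00109). Neither overlapped between the groups. Tmem182, a muscle membrane protein, fell to 31.5% of control, Cav3, the caveolin of muscle, to 13.2%, and Ncam1, an adhesion molecule, to 56.6%. The median log2 fold change of the list was -0.17, beside -0.03 for all tested genes.

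Calcium handling followed the sarcomere, with 17 of 24 tested genes of excitation-contraction coupling lower, none higher and a median of -1.08. Casq1, the fast calcium store protein calsequestrin, read 64.9, 78.2 and 66.7 CPM with control siRNA and 7.24, 7.67 and 8.06 CPM with Zfp143 siRNA, 10.97% of control (log2 fold change -3.19, SE 0.14, adjusted p = 8.62e-07). Its slow form Casq2 fell to 35.3%, Srl, the luminal calcium binder sarcalumenin, to 32.4%, and Jph1, which ties the store to the surface membrane, to 43.0%. The calcium pump Atp2a1, the voltage sensor Cacna1s and the release channel Ryr1 were at 29.5%, 35.5% and 52.0% of control. The release channel was thus among the less affected members of the apparatus, and its groups, like those of the pump and sensor, did not overlap.

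At the neuromuscular junction 6 of 12 tested genes were lower, and in the membrane complex of dystrophin and its partners 5 of 16. The acetylcholine receptor subunits Chrnd and Chrng fell to 43.4% and 41.7% of control, Colq, the anchor of acetylcholinesterase, to 20.1%, and Dok7, an activator of the receptor kinase, to 32.6%. Musk, that receptor kinase, read 36.3, 47.5 and 39.3 CPM with control siRNA against 31.7, 24.9 and 37.8 CPM and was not called (adjusted p = 0.233). In the membrane complex, Pgm5 fell to 27.9%, the sarcoglycan Sgca to 42.5% and the syntrophin Sntb1 to 51.1%.

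Of 27 tested genes of muscle energy metabolism, 14 were lower and none higher. Ckm, muscle creatine kinase, read 286, 367 and 258 CPM with control siRNA and 62.0, 46.4 and 49.4 CPM with Zfp143 siRNA, 17.3% of control (log2 fold change -2.53, SE 0.17, adjusted p = 1.72e-06). Pygm, which breaks down muscle glycogen, fell to 24.5% and Pgam2, a muscle glycolytic enzyme, to 19.3%. The fatty acid carriers Cd36 and Fabp3 fell furthest among well-counted members, to 5.05% and 8.85%. Cd36 read 7.70, 9.96 and 9.60 CPM against 0.465, 0.545 and 0.350 CPM. Ckmt2, mitochondrial creatine kinase, had 41 counts in the control libraries and 1 in the Zfp143 siRNA libraries, a ratio of 37.1 with a counting interval of 6.30 to 1501. The general mitochondrial lists had few calls. Of 76 nuclear-encoded respiratory chain genes, 1 (Cox5a, 72.6% of control) was lower by edgeR. None of 78 mitochondrial ribosome genes or 13 mitochondrially encoded genes was called. These had 2 and 0 genes at an unadjusted p under 0.05, beside 3074 of all 15030 tested genes. The Cox5a call was lost in 6 of 14 settings, among them leaving out control siRNA replicate 1 or 2 or Zfp143 siRNA replicate 1 or 3. Of the respiratory chain genes 69 had a negative log2 fold change (median -0.19) and of the mitochondrial ribosome genes 63 (median -0.10). Mitochondrially encoded mt-Co1 read 12929, 12690 and 13533 CPM against 8058, 13205 and 12530 CPM, the low value being that of replicate 1.

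The opposite movement was that of the cell cycle. Of 44 tested genes of mitosis and cytokinesis, 43 were higher, against 3.73% of all genes, and their median log2 fold change was 1.28. The same 43 and 0 stood without replicate 1 of the Zfp143 siRNA group. Cdc20, which activates the anaphase-promoting complex, read 20.1, 20.6 and 19.2 CPM with control siRNA and 63.0, 62.4 and 60.1 CPM with Zfp143 siRNA, 3.10-fold higher (log2 fold change 1.63, SE 0.13, adjusted p = 1.71e-06). The mitotic kinesin Kif20a read 30.9, 37.6 and 31.5 CPM against 95.05, 101 and 95.4 CPM. The centrosomal kinase Nek2 was 2.79-fold and cyclin B2, Ccnb2, 2.75-fold higher. Mki67, the proliferation antigen, read 81.6, 110 and 110 CPM against 221, 257 and 259 CPM (log2 fold change 1.29, SE 0.16, adjusted p = 7.95e-05), and cyclin B1, Ccnb1, read 28.6, 29.0 and 24.1 CPM against 59.4, 85.7 and 72.3 CPM. In each of these genes all Zfp143 siRNA libraries were above all control libraries, and Bub3, a checkpoint protein, was the single uncalled member at a log2 fold change of 0.26.

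DNA synthesis genes rose with them by a smaller amount. Of 48 tested replication genes 31 were higher and none lower, with a median log2 fold change of 0.74, and of 29 tested DNA repair genes 17 were higher and none lower, or 10 without control siRNA replicate 2. Uhrf1, which copies DNA methylation at the fork, was 2.23-fold higher, and the helicase subunits Mcm3, Mcm4 and Mcm5 were 2.13-fold, 1.89-fold and 2.29-fold higher. Mcm5 read 23.8, 27.1 and 21.1 CPM against 61.8, 56.9 and 46.7 CPM. Among repair genes Fanci rose 2.66-fold, Brca1 2.29-fold and Fanca 2.90-fold. Pcna, the sliding clamp, read 62.8, 50.6 and 56.9 CPM against 59.3, 86.9 and 80.9 CPM and was not called (adjusted p = 0.333), replicate 1 lying within the control range. Of the replication genes, 22 were called when Zfp143 siRNA replicate 2 was left out.

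Brakes on the cycle moved both ways. Of 13 tested inhibitors, D cyclins, their kinases and pocket proteins, Cdkn2c, Ccnd1, Cdkn2d and Rbl1 were higher and Cdkn1a was lower. The higher genes numbered 2 without any 1 of the control siRNA replicates or without Zfp143 siRNA replicate 2, when Cdkn2d and Rbl1 lost their calls. Cdkn1a, the p21 inhibitor that holds myotubes out of the cycle, read 358, 420 and 355 CPM with control siRNA and 284, 258 and 262 CPM with Zfp143 siRNA, 71.0% of control without overlap (adjusted p = 0.0238). Its call was lost without control siRNA replicate 1 or 2 or Zfp143 siRNA replicate 2 or 3. Cdkn2c, an inhibitor of the cyclin D kinases, read 20.2, 18.9 and 17.6 CPM against 46.5, 37.9 and 35.8 CPM, and Ccnd1 was 1.75-fold higher. Of 31 tested p53 targets 9 were lower and 2 higher, the lower ones including Gadd45a at 47.0%, Pmaip1 at 43.4% and Btg2 at 56.9% of control.

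The 12 largest increases by the rule were Itgb4, Prl2c2, Eme1, Pif1, Kifc1, Troap, Pimreg, Nqo1, Gtse1, Cdc20, Kif18b and Dlgap5. Itgb4, the integrin beta 4 chain of epithelial anchoring junctions, had 0.833, 0.738 and 1.26 CPM with control siRNA and 6.91, 5.79 and 4.95 CPM with Zfp143 siRNA (log2 fold change 2.63, SE 0.30, adjusted p = 2.82e-05). Prl2c2, proliferin, a secreted factor of growing cells, read 8.28, 9.12 and 11.4 CPM against 30.2, 49.3 and 36.8 CPM. Eme1 (a repair nuclease subunit), Pif1 (a DNA helicase) and Kifc1 (a mitotic kinesin) rose 3.75-fold, 3.47-fold and 3.42-fold. Troap, Pimreg, Gtse1, Kif18b and Dlgap5, all genes of dividing cells, rose 3.01-fold to 3.38-fold. Replicate 1 of the Zfp143 siRNA group had the highest value of all induced libraries for several of the 12, among them Itgb4, Cdc20, Troap, Gtse1 and Kif18b.

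The 12 largest decreases were, besides the muscle genes Actn2, Mybpc1, Mybpc2, Mef2c, Tcap, Myoz2 and Fsd2 and the carriers Cd36 and Fabp3, the cardiac myosin Myh6 (8.54% of control) and a pair of immune genes. Trim30d, of the TRIM family of innate immune genes, read 13.3, 11.5 and 13.1 CPM with control siRNA and 1.06, 0.644 and 1.10 CPM with Zfp143 siRNA. Ms4a4d, a membrane protein of the MS4A family, read 26.6, 21.2 and 22.5 CPM against 2.46, 1.53 and 2.25 CPM, 8.84% of control. Trim30d has near-identical paralogs, and its counts depend on how the quantification split reads among them. Neither gene was on a fixed list.

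Promoters were compared in RefSeq's table of GRCm38.p6, which gives 250 bases before and 50 after a start and matched 10384 of 15007 tested gene symbols. Windows are shown for genes of the main lists with the smallest p among those that hold the list's textbook motif in the 120 bases before the start. They let the letters be read beside the values, and a match is a description of the sequence, not a bound site. In capitals are TTTGAA (the cell cycle homology region, or TTCAAA on the other strand) for Cdc20 and Ube2c, the E-box CAGCTG (the same on both strands) for Mybpc1 and Tnni1, and GAAANNGAA or its reverse complement (the core of the interferon-stimulated response element) for Rsad2 and Ifi44l. They lie at chr4:118437344-118437463 (minus strand, Cdc20), chr2:164769809-164769928 (plus, Ube2c), chr10:88605153-88605272 (minus, Mybpc1), chr1:135799301-135799420 (plus, Tnni1), chr12:26456453-26456572 (minus, Rsad2) and chr3:151762892-151763011 (minus, Ifi44l).
Cdc20: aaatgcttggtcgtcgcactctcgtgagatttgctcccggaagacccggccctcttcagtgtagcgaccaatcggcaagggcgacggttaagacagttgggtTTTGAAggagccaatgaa
Ube2c: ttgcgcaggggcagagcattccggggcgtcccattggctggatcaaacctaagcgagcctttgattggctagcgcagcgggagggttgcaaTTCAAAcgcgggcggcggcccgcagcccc
Mybpc1: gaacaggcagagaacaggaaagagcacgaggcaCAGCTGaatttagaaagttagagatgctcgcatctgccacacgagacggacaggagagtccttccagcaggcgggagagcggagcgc
Tnni1: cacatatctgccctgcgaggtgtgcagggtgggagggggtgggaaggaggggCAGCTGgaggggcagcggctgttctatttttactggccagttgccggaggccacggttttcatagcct
Rsad2: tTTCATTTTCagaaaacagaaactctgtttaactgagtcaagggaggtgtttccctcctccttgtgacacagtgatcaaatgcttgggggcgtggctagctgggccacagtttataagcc
Ifi44l: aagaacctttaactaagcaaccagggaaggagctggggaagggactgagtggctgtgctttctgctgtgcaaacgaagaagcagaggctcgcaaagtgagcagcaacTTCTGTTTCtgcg

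Over the full 300-base windows, TTTGAA stood in 24 of 35 promoters of the called mitosis genes (68.6%) and in 24.8% of those of all higher genes, beside 11.9% of tested genes and 18.1% of all promoters in the table. CAGCTG stood in 19 of 45 promoters of the called contractile genes (42.2%) and in 25.7% of those of all lower genes, beside 15.3% of tested genes and 16.1% of all promoters. The interferon core was in 7 of 11 promoters of the called interferon genes (63.6%), beside 7.19% of tested genes and 8.57% of all promoters. A sterol element, TCACNCCAC, was in 1 of 14 promoters of the called cholesterol genes and in 1.04% of tested genes and 1.22% of all promoters. The ZNF143 core CCCANNATG was in 5.30% of promoters of higher and 3.83% of lower genes, beside 5.39% of tested genes and 5.10% of all promoters. It was in 6 of 35 promoters of the called mitosis genes, 1 of 45 of the called contractile genes and none of 11 and 14 of the called interferon and cholesterol genes. All motifs were searched on both strands, and matches to different motifs may overlap in part. The textbook motifs belong to these kinds of gene, and uncalled members of the lists were not counted apart. The list shares therefore cannot speak to the siRNA, and a link to it was not tested.

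Lipid synthesis genes were higher. Of 25 tested genes of cholesterol synthesis and uptake 21 rose, none fell, and the median log2 fold change was 0.83. Fdps, which makes farnesyl diphosphate, read 81.7, 81.7 and 69.7 CPM with control siRNA and 148, 172 and 147 CPM with Zfp143 siRNA, 2.004-fold higher (SE 0.11 on the log2 scale, adjusted p = 2.92e-05). Sqle, squalene epoxidase, read 99.0, 97.2 and 100 CPM against 177, 179 and 175 CPM. Acat2, of the first steps, rose 2.09-fold. All these groups were separate. The transcription factor Srebf2, which drives the pathway, rose 1.73-fold, with 475 CPM in replicate 1 of the Zfp143 siRNA group and 321 and 318 CPM in the others, against 206 to 220 CPM in the controls. Without that replicate 19 genes of the list were higher.

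Of 12 tested genes of fatty acid synthesis 7 were higher and none lower, the desaturases Fads2 and Scd2 by 1.90-fold and 1.68-fold and the synthase Fasn by 1.95-fold. Fasn read 132, 168 and 146 CPM against 381, 243 and 248 CPM, again highest in replicate 1. Among 24 tested targets of NRF2, the factor of the antioxidant response, 7 were higher and none lower. Nqo1, a quinone reductase, read 9.37, 9.33 and 8.45 CPM with control siRNA and 29.2, 30.7 and 25.7 CPM with Zfp143 siRNA, 3.15-fold higher (SE 0.22 on the log2 scale, adjusted p = 0.000147). Pgd and G6pdx, which make NADPH in the pentose phosphate pathway, rose 1.55-fold and 1.57-fold. Hmox1, another target, was at 96.7% of control and not called. The NRF2 count fell to 2 without control siRNA replicate 1.

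Innate immune genes were lower in part. Of 48 tested interferon-stimulated genes 15 were lower and none higher, with a median of -0.40. Rsad2, the antiviral protein viperin, read 45.9, 39.6 and 42.5 CPM with control siRNA and 5.71, 7.03 and 5.00 CPM with Zfp143 siRNA, 13.9% of control (log2 fold change -2.85, SE 0.19, adjusted p = 8.62e-07). Cmpk2, its neighbour gene, fell to 23.4%, Ifi44l to 33.3% and Sp100, a nuclear body protein, to 53.4%. These groups did not overlap. Ifit1, expressed at a far higher level, did not pass: it read 687, 666 and 656 CPM against 539, 617 and 493 CPM (adjusted p = 0.204). The count was 8 without Zfp143 siRNA replicate 3 and 13 without replicate 1, and it was 21 by DESeq2.

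Antigen presentation genes followed, 5 of 15 tested being lower and none higher. H2-K1, a class I heavy chain, read 675, 513 and 466 CPM against 207, 221 and 194 CPM (37.6% of control, adjusted p = 9.72e-06), and B2m, the shared light chain, 2482, 1892 and 1992 CPM against 990, 898 and 854 CPM. H2-D1 fell to 44.9%. Class I heavy chain genes are close paralogs, so the split of reads between them is an estimate. Of 25 chemokine and cytokine genes 5 were lower, among them Ccl5, a T cell attractant, from 49.0, 34.9 and 36.1 CPM to 9.90, 7.82 and 5.70 CPM. Cfb, complement factor B, was at 42.5% of control. It was the 1 gene called of 11 in its list (9.09%), near the 9.49% called among all genes.

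Some fast-response genes were lower. Of 20 tested immediate early genes 8 were lower and 1, Fosl1, higher. Fos, a subunit of AP-1, read 509, 301 and 381 CPM with control siRNA and 48.4, 142 and 147 CPM with Zfp143 siRNA (28.4% of control, SE 0.33 on the log2 scale, adjusted p = 0.00262), a call that was lost in the fit of the 2 induced groups alone and with no filter (highest adjusted p = 0.0638). Nr4a1, a nuclear receptor of early responses, read 130, 105 and 132 CPM against 27.4, 53.7 and 51.0 CPM, and the zinc finger factor Egr2 107, 78.1 and 113 CPM against 25.8, 51.1 and 54.1 CPM. Ptgs2, which makes prostaglandins, read 317, 323 and 374 CPM against 74.6, 137 and 152 CPM. For these 4 genes the lowest library was replicate 1, and replicates 2 and 3 were also below every control. Summed over the list, replicate 1 stood at 2459 CPM and the others at 2394 and 2371 CPM, and without replicate 1 there were 9 lower genes.

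The integrated stress response, in which Atf4 induces genes of amino acid supply, had 13 of 35 tested genes lower and none higher. Atf3, a repressor of the response, read 25.3, 25.0 and 22.2 CPM with control siRNA and 8.10, 6.98 and 7.76 CPM with Zfp143 siRNA (log2 fold change -1.67, SE 0.12, adjusted p = 8.82e-07). Chac1, a glutathione-degrading enzyme, fell to 31.8% of control, Fgf21, a secreted stress hormone, to 40.6%, and Stc2 to 51.1%. Of 31 genes of the unfolded protein response and heat shock 7 were lower and 2 higher. The lower ones included the small heat shock proteins Hspb7 (15.5% of control), Hspb8 (43.0%) and Hspb2 (47.4%), which muscle makes in quantity, and the 2 higher ones were Hspa1a and Hspa1b. Neither was called when any 1 of the control siRNA replicates or Zfp143 siRNA replicate 1 was left out, and 1 was called without Zfp143 siRNA replicate 3.

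Matrix genes moved less. Of 18 collagens tested, Col18a1 was higher and Col8a2 lower (11.1% called), near the 9.49% called among all genes. Of 31 other matrix genes 9 were lower and 2 higher. Postn, periostin, read 1099, 1071 and 1154 CPM with control siRNA and 226, 197 and 228 CPM with Zfp143 siRNA, 19.6% of control without overlap (log2 fold change -2.35, SE 0.18, adjusted p = 1.72e-06). Thbs2, thrombospondin 2, and Bgn, biglycan, fell to 57.4% and 52.6%. Of these 31 genes, 3 were lower when Zfp143 siRNA replicate 2 was left out. Of 24 targets of YAP and TGF-beta 6 were lower, with Ccn2 (connective tissue growth factor) going from 365, 312 and 312 CPM to 128, 101 and 98.7 CPM. Igf1, a growth factor that muscle cells secrete, fell to 28.8% of control, from 26.3, 20.03 and 27.6 CPM to 6.04, 8.02 and 7.16 CPM. Of 15 tested genes of its axis 4 were lower and 1 higher (33.3% called). Hes1, the Notch target, fell to 34.7%, and Trim63, the atrophy ligase of muscle, to 30.0%. Their lists had few calls, all lower: 2 of 15 tested Notch genes (13.3%) and 2 of 24 atrophy and autophagy genes (8.33%). Among all genes 9.49% were called.

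Several lists, of factors related to ZNF143, of snRNA transcription or of general cell function, showed no call by edgeR. None of 21 genes of the ZNF143 family, its partners and looping factors passed, nor any of 19 factors of snRNA transcription, 33 genes of mitochondrial expression and import or 76 cytosolic ribosomal protein genes. Rad21, the cohesin subunit and most abundant of the first list along with Ogt, read 268, 285 and 293 CPM with control siRNA and 309, 385 and 392 CPM with Zfp143 siRNA at an adjusted p of 0.0995. Ogt, the O-GlcNAc transferase, was at 96.5% of control. The ribosomal protein Rplp0 was at 118% with overlapping groups. At an unadjusted p under 0.05 these lists had 3, 2, 2 and 0 genes, beside 3074 of all 15030 tested genes. DESeq2 called 2 of the mitochondrial expression genes lower. With scaling by library size alone, or without Zfp143 siRNA replicate 1, 1 gene of the first list was higher.

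Markers of other cell types were measured in the same libraries. The summed CPM of the fibroblast and smooth muscle list lay between 14775 and 16184 with control siRNA and between 10632 and 12470 with Zfp143 siRNA. Of its 12 tested genes 5 (Acta2, Tagln, Des and Lum among them) were lower. Des is also among the muscle markers above and Acta2 among the actins, so this list is not separate from the muscle genes. The adipocyte list summed to 438 to 501 CPM against 490 to 586 CPM, with Cfd, Cidec, Lep, Retn and Ucp1 at 0 in all 6 libraries, and the osteoblast and chondrocyte list to 2024 to 2269 CPM against 1988 to 2376 CPM, with Acan, Ibsp and Matn1 at 0. Endothelial genes summed to 4.84 to 5.43 CPM against 3.05 to 4.802 CPM (Emcn and Tie1 at 0), and macrophage and leukocyte genes to 18.6 to 19.8 CPM against 24.7 to 29.0 CPM (Adgre1, Cd3e and Tyrobp at 0). Epithelial and neuronal genes summed to 16.6 to 18.8 CPM against 15.7 to 18.996 CPM, with Epcam, Krt5, Map2, Rbfox3 and Snap25 at 0. Of the 4 tested genes of that last list 2 were higher and 1 lower. Krt14 was higher, at 0.468, 0.580 and 0.420 CPM against 2.86, 2.48 and 1.65 CPM, and Krt8 lower, at 31.3% of control. Stmn2 was the other higher gene, a call lost in 5 of 14 settings. Cebpa was the 1 gene called of 4 tested adipocyte genes, Sox9 of 7 osteoblast and chondrocyte genes and Cd14 of 4 macrophage and leukocyte genes. All were higher, and their calls were lost in 3, 4 and 4 of 14 settings. None of 3 tested endothelial genes was called. The part of these markers in the results above was not tested.

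The calls in induced cells were set beside those before induction. In uninduced cells, harvested 24 hours after transfection and sharing no library with the induced comparison, 2311 genes were higher (15.4%) and 2575 lower (17.1%). Of the 560 genes higher after induction, 121 were also higher before it, 103 were lower and 336 were not called, and of the 867 lower genes 115 were also lower, 235 were higher and 517 were not called. The shared genes were 21.6% and 13.3% of the induced calls and 5.24% and 4.47% of the uninduced calls in the same direction. The 2 log2 fold changes correlated across 15007 genes at a Pearson r of -0.06 and a Spearman rho of -0.02, a description over genes, which are not independent replicates. The difference of the 2 effects passed the test for 3375 genes (22.5%), 1595 with a higher effect in induced cells (10.6%) and 1780 with a lower one (11.8%).

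**Figure D5:**
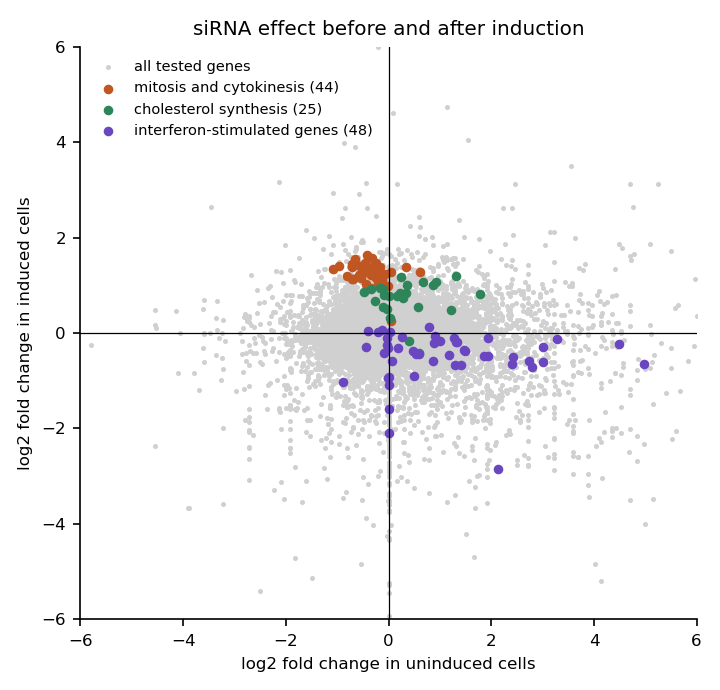
Log2 fold change of each tested gene symbol with Zfp143 siRNA in induced cells (vertical axis) against that in uninduced cells (horizontal axis), with 33 genes beyond 6 on either axis not drawn. Mitosis genes lie in the upper part and mostly left of 0, cholesterol genes in the upper part on both sides, and interferon-stimulated genes reach far to the right but lie near or below 0 on the vertical axis.

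Gene groups differed between the times in the same manner. For mitosis and cytokinesis the difference was called higher in 42 of 44 genes, and before induction 17 of these genes were lower, 1 was higher and their median was -0.35. Cdc20 had a log2 fold change of -0.43 before induction and 1.63 after it, a difference of 2.06 (SE 0.18, adjusted p = 2.33e-06). Of the interferon-stimulated genes 24 of 48 had a lower effect after induction, the list's median being 0.88 before it and -0.40 after it. Ifit1 was 3.02 higher on the log2 scale before induction and -0.29 after it, and Bhlhe40 was 2.26 against -0.71. Of the 25 tested cholesterol synthesis genes, 9 had a higher and 3 a lower effect after induction, beside 10.6% and 11.8% of all genes. Acat2 was 0.93 before and 1.06 after induction. For the ZNF143 partners 13 of 21 were lower before induction and none after it. Several contractile genes were near 0 before induction, such as Acta1, at 0.127 CPM in the control libraries, and Ckm, at 0, and their fold changes there rest on few counts. Tnnt2, with means of 4.62 CPM with control siRNA and 26.9 CPM with Zfp143 siRNA before induction, was counted at both times.

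The 6 genes with the smallest p for this difference, among those with at least 5 CPM in some group, were Egln3, Tnnt2, Gadd45b, Prdm1, Plau and Maff. Egln3, an oxygen sensor that marks hypoxia targets, read 114, 121 and 115 CPM with control siRNA and 40.1, 39.9 and 40.0 CPM with Zfp143 siRNA after induction (log2 fold change -1.54), and had risen by 1.70 before it. Gadd45b, a stress and growth arrest gene, was higher by 2.996 on the log2 scale before induction and at -0.30 after it without a call. Plau, the urokinase, was higher by 2.57 before and lower at -0.61 after induction, and Prdm1 and Maff, both transcription factors of stress and immune responses, went from 3.59 and 2.93 to -0.67 and -0.56. In each of these genes the 2 effects had opposite signs. The control siRNA of the uninduced group includes replicate 3, which had 6.02% mitochondrial counts against 2.63% and 2.90%, and leaving it out raised the numbers of differences to 2232 and 2518.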

How the data were processed

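The deposited table holds, per the file headers, estimated counts, effective lengths, and TPM and FPKM columns for each gene and library. The submitters' processing notes name fastp 1.0.1, STAR 2.7.11b, Salmon and the build GRCm39; for Salmon's version and the annotation the sources used here give nothing. Poly(A) libraries were not strand-specific, per the labels' protocols, so a gene and an antisense partner cannot be told apart. The estimated counts deposited by the authors (at most 7.26% of values per library not whole) were rounded here after 535 repeated lines were dropped from 78810. TPM values deposited by the authors, scaled from the counts by length, gave the isoform shares. Another 18 per-sample columns were not used. The effective lengths deposited by the authors served as an offset in an alternative.

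Genes were filtered by filterByExpr with the groups given (minimum count 10, minimum total 15), which does not ask for counts in every library. The genes kept were fitted over all 12 libraries with 4 group means and TMM scaling. They were tested by edgeR 4.0.16's robust quasi-likelihood test in R 4.3.3, with Benjamini-Hochberg adjustment and a threshold of 0.05. Standard errors come from the same fit. Script steps were tested on simulated data. Genes were named by rule: Zfp143 and a panel, the 12 largest changes each way (at least 5 CPM, no overlap), up to 4 members of each of 51 lists, and 6 genes for the difference between times; others named were chosen after their values were seen. Members and lists were chosen with earlier results of these data known. Replicate numbers did not pair the induced libraries (correlations of deviations 0.08, -0.06 and 0.15). Alternatives were RLE and library-size scaling, no filter, DESeq2 1.42.0, limma-voom 3.58.1, fits of 2 groups, a length offset, a replicate block and leaving out each library. Depth, 13520879 to 18482793 counts per induced library, limits precision below about 1 CPM. Some genes are not reported here.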

Additional observations from a re-analysis of the deposited data

Results flagged for a closer look

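For the genes below, the effect of the Zfp143 siRNA in induced cells differed from that in uninduced cells by edgeR's interaction test at an adjusted p below 0.05. They come from the siRNA target, the myogenic panel and the largest changes, apart from 6 (Egln3, Tnnt2, Gadd45b, Prdm1, Plau and Maff) that were chosen for the smallest p of this difference. The values below are that difference on the log2 scale, induced minus uninduced. The samples of the 2 times share no library.

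Among genes of dividing cells the difference was 2.38 for Ccnb1, 1.58 for Mki67, 2.06 for Cdc20, 2.19 for Dlgap5, 2.38 for Troap, 2.39 for Pimreg, 1.56 for Kif18b, 1.58 for Kifc1 and 0.94 for Gtse1, and for the DNA repair and replication genes Eme1 and Pif1 it was 2.41 and 2.43. All of these were higher in induced cells with Zfp143 siRNA. Cdkn1a, the cell cycle inhibitor, went the other way, at -1.70. Zfp143 itself had a difference of 1.22 and Myf5 one of 1.26, both having been lower before induction and not called after it. Nqo1, the quinone reductase, had a difference of 1.21.

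Among muscle genes the difference was -3.59 for Acta1, -4.22 for Mymk, -5.34 for Tcap, -2.99 for Fabp3, -4.70 for Myoz2 and -4.18 for Tnnt2. In the uninduced control libraries Acta1 averaged 0.127 CPM, Mymk 0.116 CPM and Tcap and Myoz2 0.0181 CPM each, so these values rest on few counts there, and their standard errors were 0.86, 0.61, 1.65 and 1.38. The stress and protease genes Egln3, Gadd45b, Prdm1, Plau and Maff had differences of -3.24, -3.30, -4.26, -3.18 and -3.48, having been higher before induction.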

How the results depend on the processing

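None of the genes rerun under the alternatives changed direction, but the balance of calls turned. With scaling by library size alone 681 genes were higher and 631 lower in induced cells, and in uninduced cells 2311 and 2575 became 2307 and 2203 with that scaling, 2464 and 2338 with RLE scaling and 2012 and 1819 in a fit of those 2 groups alone. Of 108 values of the main counts and of Zfp143, 105 stayed within 1.5 times of the reported value or on the same side of the threshold. The other 3 came from leaving out 1 library: without control siRNA replicate 2 of the induced cells, 337 genes were higher and 564 lower in place of 560 and 867, and without Zfp143 siRNA replicate 1 of the uninduced cells 1693 were lower there in place of 2575. Leaving out each library in turn gave 337 to 503 higher and 564 to 858 lower genes in induced cells, and 1784 to 2951 higher and 1693 to 2829 lower genes in uninduced cells. These fits hold fewer libraries, and the cause of single losses was not tested. In induced cells DESeq2 called 698 higher and 1077 lower genes, limma-voom 588 and 985, a fit of the 2 induced groups alone 672 and 879, a transcript length offset 627 and 974, no filter 596 and 921, and RLE scaling 559 and 867. With a replicate block the counts were 579 and 922. Whether replicate numbers pair the libraries is not known, and they were not taken as pairs in the main fit. The effect in induced cells was rerun for 164 genes: Zfp143, the panel and the called genes among those named by rule. Of these, 134 stayed called or uncalled throughout and 29 lost a call in at least 1 setting. Myf5 gained a call with DESeq2, the 2-group fit and the length offset (lowest adjusted p = 0.0305). Other uncalled genes, and genes named after their values were seen, were not rerun in this way. Depth limits genes near 1 CPM.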

Other observations

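Other gene groups in the induced libraries changed in part. Of 30 tested genes of glycolysis and hypoxia response 6 were lower and none higher, with Egln3 at 34.3% of control, P4ha1, a collagen hydroxylase, at 61.4% and the muscle phosphofructokinase Pfkm at 64.0%. Before induction 25 of the same list were higher and none lower. Of 21 matrix proteases and their inhibitors 6 were lower and Mmp9 was higher. Mmp2, a gelatinase, read 37.6, 34.5 and 34.99 CPM with control siRNA and 20.6, 15.05 and 17.3 CPM with Zfp143 siRNA, without overlap. Mmp9, the other gelatinase, read 79.9, 76.9 and 77.4 CPM against 145, 101 and 98.5 CPM (adjusted p = 0.0486), highest in replicate 1, and no gene of this list was higher without that replicate.

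Of 11 imprinted genes 3 were lower and 1 higher. Peg10, a retrotransposon-derived gene, read 43.6, 51.3 and 52.3 CPM with control siRNA against 66.4, 94.8 and 94.4 CPM, 1.74-fold higher, and Grb10, a growth inhibitor, fell to 23.1% of control at low counts. Of 13 histone genes, H2ax, whose phosphorylated form marks DNA breaks, was 2.29-fold higher, and H2bc4 and H1f4 were at 55.8% and 35.1% of control.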
